A study of Mus musculus with 9 samples.

Results

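Transcripts of T cells in mouse ear skin were followed through 34 genes, chosen by symbol as a list of receptor chains, CD3 subunits, coreceptors, signalling proteins, costimulatory and cytokine receptors, and factors of the gamma-delta, regulatory and helper lineages. All 34 matched a row among the 55401 features of the table, and all 34 were among the 21925 genes that passed the filter on low counts. The ears came from C57 mice in 3 groups of 3 libraries. Control ears received absolute ethyl alcohol. The second group received MC903 (calcipotriol), an analogue of vitamin D used on mouse skin to model atopic dermatitis. The third received MC903 and, at 200 mg/kg, paeonol, a phenol found in the root bark of peonies. The labels give no age, no duration, no route of paeonol and no vehicle for it, and no group received paeonol alone, so paeonol and its vehicle cannot be told apart. Whether each library is a different animal is not stated either, and the spread behind the p-values may thus be technical.

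A T cell recognises antigen through a receptor of paired alpha and beta chains, or of gamma and delta chains, which signals through the CD3 subunits and the zeta chain (Cd247) to the kinases LCK and ZAP70 and the scaffold LAT. Mouse epidermis holds a resident population of gamma-delta T cells, the dendritic epidermal T cells, which carry a nearly invariant receptor and express Thy1 and the activating receptor NKG2D (Klrk1). Alpha-beta T cells, among them helper, cytotoxic and regulatory cells, are found mainly in the dermis and enter inflamed skin.

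Library totals ran from 54.26 M to 57.75 M estimated counts. The genes were fitted together in edgeR, and those with an adjusted p (Benjamini-Hochberg, over the 21925 genes) under 0.05 were called. Levels are CPM, counts relative to the TMM-scaled library total, and each change is a log2 value ± its standard error. Ear skin was recognisable in every group: summed CPM of 7 keratinocyte genes was 16800 to 19400 in control, 24300 to 30300 in MC903 and 40000 to 43400 with paeonol. Summed levels of genes of other tissues also moved with the groups. Skeletal muscle genes summed to 5590 to 8350 CPM in control, 2510 to 3330 in MC903 and 2930 to 3900 with paeonol, and fibroblast genes to 8570 to 9340, 2810 to 3930 and 4150 to 5260 CPM. The part of these shifts in the results was not tested. In tissue libraries fewer cells of a type and less RNA per cell cannot be told apart.

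With MC903, 8 of the 34 genes rose, 8 fell and 18 were not called. The called share of 47.1% (23.5% in each direction) is near the background, 46.8% of all genes in that comparison (23.0% higher, 23.8% lower), in its size and in its split. Groups did not overlap for 9 genes higher and 9 lower in MC903, and over all genes that share was 58.1% (28.3% higher, 29.8% lower). The median log2 change was 0.10 over the 34 genes and -0.01 over all genes tested. What fell was the delta chain Trdc, the CD3 subunits Cd3e and Cd3g, the zeta chain Cd247, Zap70, Thy1, Klrk1 and Gata3. What rose was the alpha chain Trac, the beta chain Trbc2, Cd4, Cd8a, the costimulatory receptors Icos and Ctla4, and the cytokine receptor genes Il2rg and Il7r.

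With paeonol added to MC903, 4 of the 34 genes were higher than in MC903 alone, 13 were lower and 17 were not called. The called share was 50%, against 29.7% of all genes (15.3% higher, 14.3% lower), and the share called lower was 38.2%. Groups did not overlap for 4 genes higher and 15 lower, beside 43.9% of all genes (21.9% higher, 22.0% lower). The median log2 change was -0.48 over the 34 genes and 0.00 over all genes. The 4 higher genes were Trdc, Cd3g, Thy1 and Gata3. Against control, the ears given MC903 and paeonol had 1 gene higher (Trbc2) and 9 lower, 29.4% of the list beside 30.9% of all genes (16.3% higher, 14.5% lower). Groups did not overlap for 1 gene higher and 17 lower, beside 46.4% of all genes (22.8% higher, 23.6% lower). The 3 comparisons share their libraries in pairs, so their values are given side by side and not as independent results.

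**Figure D1:**
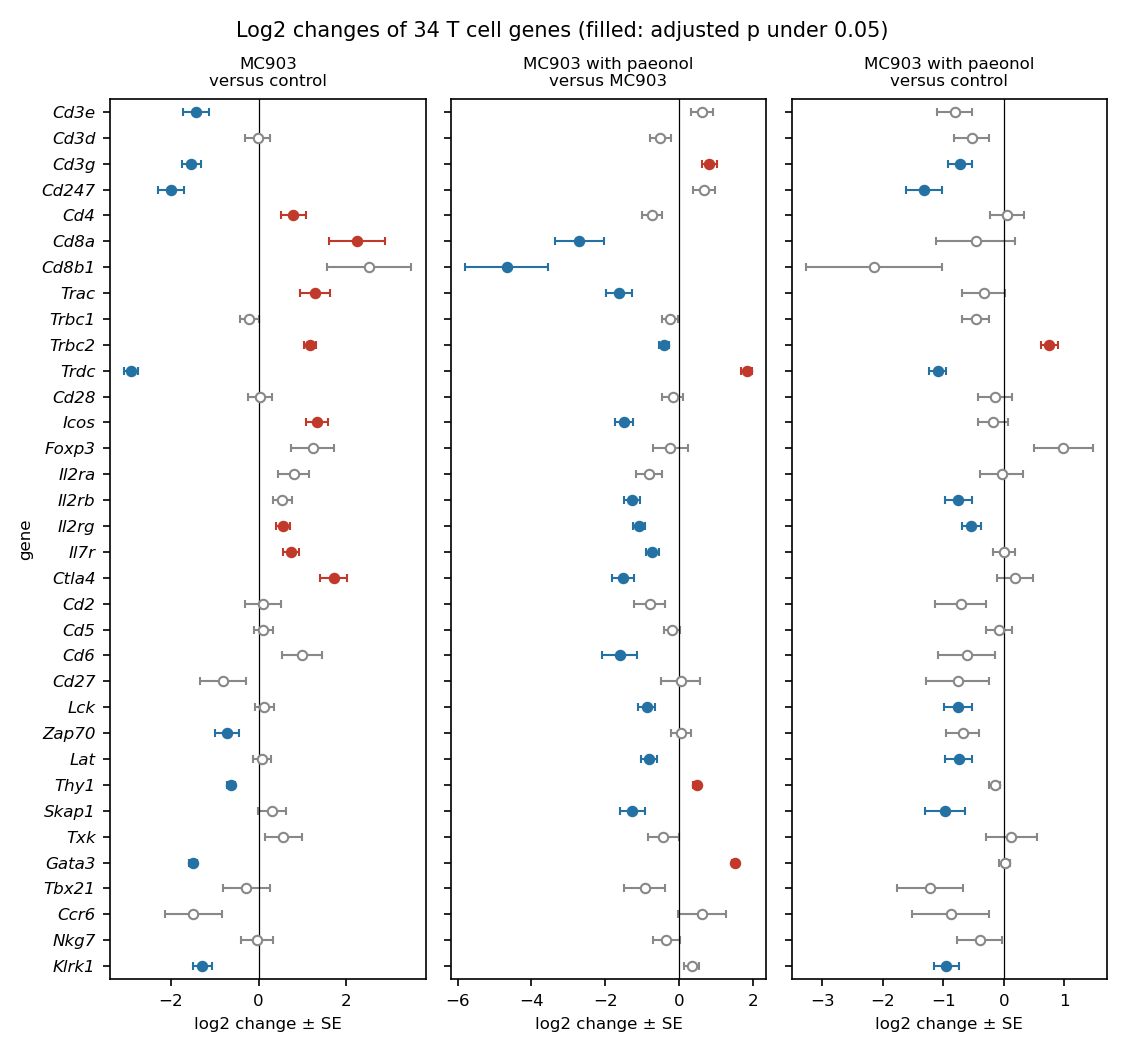
Log2 change (x axis, ± SE) of each of the 34 genes (y axis) in the 3 comparisons, each panel with its own scale. Filled points passed an adjusted p of 0.05 in edgeR, red for higher and blue for lower; Trdc lies at -2.91 in the left panel and 1.82 in the middle panel, and Gata3 at -1.49 in the left panel and 0.01 in the right.

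The delta chain gave the clearest change among the receptor genes. Trdc, the constant region of the delta chain (chromosome 14, 54142851 to 54148868, GRCm38), was at 19.6, 20.6 and 18.5 CPM in the control libraries, 2.43, 2.66 and 2.71 CPM in MC903, and 8.55, 10.9 and 8.05 CPM with paeonol. The 3 groups did not overlap, with MC903 lowest and the paeonol ears between it and control. Trdc fell 7.53-fold with MC903 (log2 change -2.91 ± 0.15, edgeR adjusted p = 2.45e-07). It was 3.53-fold higher with paeonol than with MC903 alone (1.82 ± 0.14, adjusted p = 1.05e-05) and remained 2.13-fold below control (-1.09 ± 0.14, adjusted p = 0.000206). These 3 calls held under each of the 16 alternative settings. Exons of Trdc overlap Trdv5 and Gm43434 on the opposite strand. The sources used here do not state whether counting used the strand.

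The alpha chain went the other way. Trac, the constant region of the alpha chain (chromosome 14, 54220521 to 54224206), was at 0.816, 2.28 and 1.37 CPM in control, 3.44, 3.29 and 4.17 CPM in MC903 and 0.883, 1.22 and 1.44 CPM with paeonol. All MC903 libraries lay above all others. Trac rose 2.44-fold with MC903 (log2 change 1.29 ± 0.35, edgeR adjusted p = 0.00996) and was 3.08-fold lower with paeonol than with MC903 alone (-1.62 ± 0.36, adjusted p = 0.005). Against control the paeonol ears were at -0.34 ± 0.35, which was not called. Of the 2 beta chain constant genes, Trbc2 was at 13.7, 15.4 and 12.5 CPM in control, 27.9, 35.2 and 30.4 CPM in MC903 and 19.2, 25.5 and 25.4 CPM with paeonol, without overlap between groups. It rose 2.25-fold with MC903 (1.17 ± 0.14) and stayed 1.68-fold above control with paeonol (0.75 ± 0.13, adjusted p = 0.00165). It was lower with paeonol than with MC903 alone (-0.42 ± 0.13, adjusted p = 0.0354). Leaving out MC903 library 2, MC903 library 3 or paeonol library 1 ended that call (adjusted p = 0.142, 0.0716 and 0.129). Trbc1, with 6.96, 8.74 and 6.88 CPM in control, 4.5, 6.88 and 8.11 CPM in MC903 and 5.46, 6.12 and 4.74 CPM with paeonol, was called in none of the comparisons (edgeR adjusted p = 0.458, 0.428 and 0.13), but was lower with paeonol than in control under scaling by library totals (adjusted p = 0.0481). The transcripts of the 2 beta genes are 95.9% identical over 508 aligned bases, so reads may be split between them and their separate values are uncertain.

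The ratio of Trdc to Trac within a library does not depend on scaling. On the log2 scale, with 4 counts added to each gene, it was 4.48, 3.14 and 3.69 in control, -0.49, -0.3 and -0.61 in MC903, and 3.18, 3.09 and 2.42 with paeonol. Trdc counts thus exceeded Trac counts in every control and paeonol library and in no MC903 library. The counts were not divided by exon length, which is 3865 bases for Trdc and 935 for Trac. A log2 ratio of 0 therefore does not mean equal levels, and only differences between groups are read. Between MC903 and control the mean ratio differed by -4.24, and between paeonol and MC903 alone by 3.36. Each split was complete, and the exact permutation test, two-sided, gave p = 0.1, the smallest that 3 against 3 libraries allow. The paeonol and control libraries overlapped, with a difference of -0.88 (exact permutation p = 0.2). Across 12 such contrasts (4 ratios, 3 comparisons) none can reach 0.05 in this design.

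**Figure D2:**
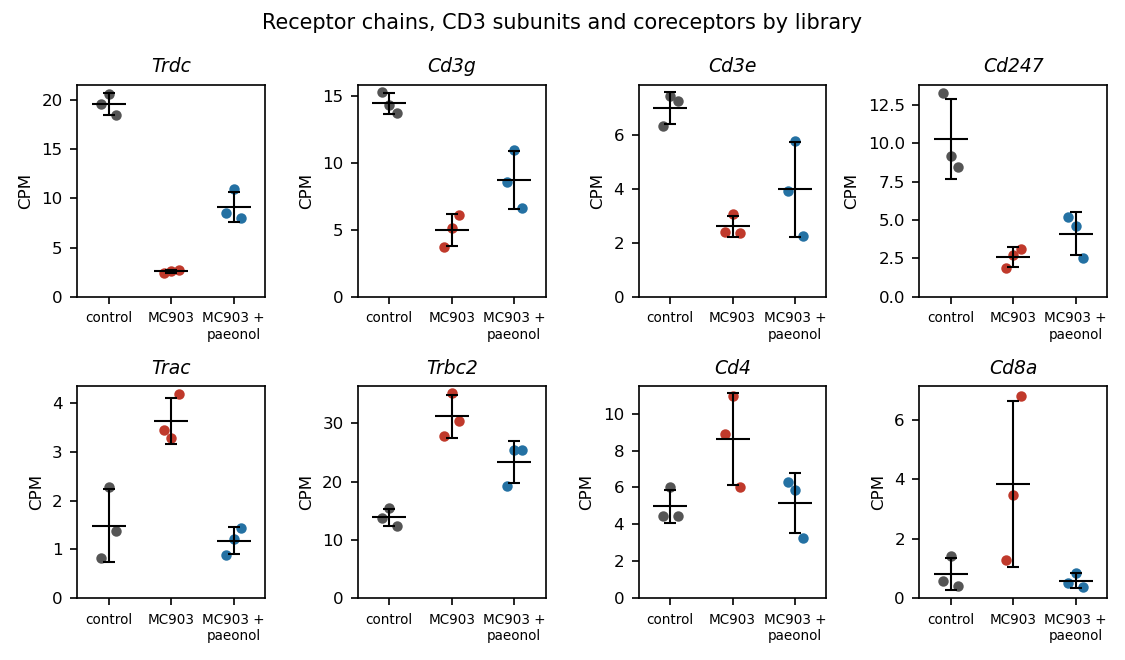
CPM (y axis, from 0) of 8 receptor, CD3 and coreceptor genes in the 3 groups (x axis). Points are libraries, and black bars are the mean ± SD (n = 3); Trdc was 2.43 to 2.71 CPM in MC903 against 18.5 to 20.6 in control, while Trac was highest in MC903.

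Other genes of gamma-delta T cells, from a list of 18 of which 12 matched and 11 were tested, gave the following counts. With MC903, 8 of the 11 (72.7%) were lower and 0 higher, with a median log2 change of -1.16, beside 23.8% of all genes lower. Between paeonol and MC903 alone 4 (36.4%) were higher and 1 (9.09%) lower, beside 15.3% and 14.3% of all genes. Against control 0 were higher and 2 (18.2%) lower, beside 14.5% of all genes lower. Tcrg-C1, a gamma chain constant gene, was at 7.71, 7.43 and 8.47 CPM in control, 1.64, 1.31 and 1.83 CPM in MC903 and 5.53, 5.7 and 4.33 CPM with paeonol. Its log2 changes were -2.30 ± 0.20 with MC903 and 1.70 ± 0.19 with paeonol against MC903 alone (edgeR adjusted p = 3.72e-06 and 8.53e-05). Tcrg-C1 remained lower with paeonol than in control, without overlap (-0.601 ± 0.185, edgeR adjusted p = 0.0284). Trdv4 and Tcrg-V5 encode the variable segments of the receptor carried by dendritic epidermal T cells. Trdv4 was at 1.99 to 3.35 CPM in control, 0.181 to 0.628 CPM in MC903 and 1.42 to 2.69 CPM with paeonol, and Tcrg-V5 at 1.06 to 1.9, 0.0391 to 0.163 and 0.495 to 1.7 CPM. Trdv4 fell by 2.68 ± 0.44 on the log2 scale with MC903 and was higher with paeonol than with MC903 alone by 2.33 ± 0.44. Tcrg-V5 had only 2, 7 and 9 estimated counts in the MC903 libraries, under the floor of 12, and was called lower with MC903 and higher with paeonol than with MC903 alone (edgeR adjusted p = 0.000402 and 0.00174). Neither was called against control. 5830411N06Rik, the fourth by p-value, fell by 1.16 ± 0.30 with MC903 and was not called with paeonol against MC903 alone (0.48 ± 0.30). The gamma constant genes resemble each other, so reads may be split between them.

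**Figure D3:**
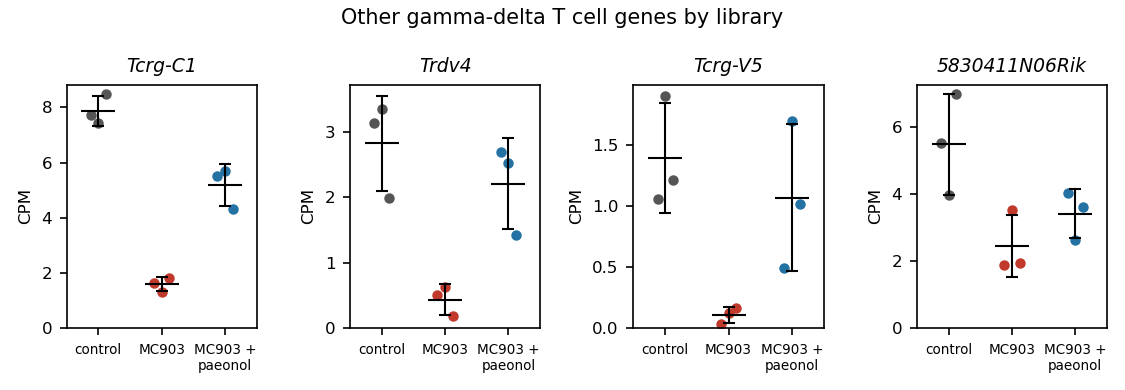
CPM (y axis, from 0) of 4 further gamma-delta T cell genes in the 3 groups (x axis). Points are libraries, and black bars are the mean ± SD (n = 3); Tcrg-C1, Trdv4 and Tcrg-V5 were lower in each MC903 library than in any other library.

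Of the invariant subunits, 3 of 4 fell with MC903. Cd3g was at 15.3, 14.3 and 13.8 CPM in control, 3.76, 5.12 and 6.12 CPM in MC903 and 8.62, 11 and 6.65 CPM with paeonol. These groups did not overlap. It fell 2.89-fold with MC903 (log2 change -1.53 ± 0.21, edgeR adjusted p = 0.000103), was higher with paeonol than with MC903 alone (0.81 ± 0.21, adjusted p = 0.0123) and was lower with paeonol than in control (-0.73 ± 0.20, adjusted p = 0.0185). The second of these calls ended without paeonol library 2 (adjusted p = 0.0605), and the third without control library 1 or paeonol library 1 or 3 (adjusted p = 0.0576, 0.0504 and 0.0683). Cd3e was at 6.31, 7.43 and 7.23 CPM in control, 2.39, 3.05 and 2.38 CPM in MC903 and 3.92, 5.75 and 2.24 CPM with paeonol, and fell 2.68-fold with MC903 (-1.42 ± 0.29, adjusted p = 0.00181). Cd247, the zeta chain, a signalling subunit rich in phosphorylation sites, was at 13.3, 9.17 and 8.47 CPM in control, 1.86, 2.75 and 3.14 CPM in MC903 and 5.17, 4.65 and 2.55 CPM with paeonol. It fell 3.98-fold with MC903 (-1.99 ± 0.30, adjusted p = 0.000208) and was lower with paeonol than in control (-1.32 ± 0.29, adjusted p = 0.0053). Exons of Cd247 overlap Gm16565 on its own strand and Pou2f1 on the other.

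Between paeonol and MC903 alone neither Cd3e (0.61 ± 0.29, edgeR adjusted p = 0.144) nor Cd247 (0.67 ± 0.29, adjusted p = 0.111) was called. Paeonol library 3 was the lowest of its group for both, and without it both were called higher (adjusted p = 0.013 and 0.0222). Against control, Cd3e with paeonol was at -0.81 ± 0.29 with an adjusted p of 0.0502, and was called without paeonol library 2 (adjusted p = 0.0111), with DESeq2 (adjusted p = 0.0249), with scaling to library totals (0.0239), without the filter (0.0483) and with counts divided by 4 (0.0339).

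Cd3d was the exception among the subunits. It was at 3.09, 2.76 and 2.89 CPM in control, 1.7, 2.77 and 4.14 CPM in MC903 and 2.08, 2.12 and 1.84 CPM with paeonol, and was not called with MC903 (log2 change -0.02 ± 0.29). The MC903 libraries spread to both sides of the controls. Without MC903 library 1 it was lower with paeonol than with MC903 alone (edgeR adjusted p = 0.0403, against 0.223 with all libraries). Cd3d and Cd3g lie head to head on chromosome 9, with 1355 bases between their annotated starts. The log2 ratio of Cd3g to Cd3d, examined after the values were seen, was 2.28, 2.35 and 2.23 in control, 1.11, 0.87 and 0.56 in MC903 and 2.01, 2.33 and 1.81 with paeonol. It was lower in every MC903 library than in any other (differences of -1.44 from control and 1.21 between paeonol and MC903, exact permutation p = 0.1 each, two-sided).

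The promoters of the 4 subunit genes are shown because 3 of them fell together with MC903 and the fourth, which shares its neighbourhood with Cd3g, did not follow. Each window runs from 250 bases before to 50 bases after the gene start (RefSeq, GRCm38.p6), and the capitals mark short motifs searched on both strands: TGTGGT for RUNX factors, AGATAA for GATA factors, CAGCTG for E proteins (its own reverse complement), GGAAGT for ETS factors and CTTTGA for TCF factors.
Cd3e, chr9:45009562-45009861, minus strand: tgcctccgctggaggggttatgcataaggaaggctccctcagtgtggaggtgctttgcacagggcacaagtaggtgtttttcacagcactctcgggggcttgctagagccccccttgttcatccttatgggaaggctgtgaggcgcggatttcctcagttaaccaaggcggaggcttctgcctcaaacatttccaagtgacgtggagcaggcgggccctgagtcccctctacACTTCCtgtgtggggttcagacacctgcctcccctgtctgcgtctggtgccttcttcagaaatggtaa
Cd3g, chr9:44980382-44980681, minus strand: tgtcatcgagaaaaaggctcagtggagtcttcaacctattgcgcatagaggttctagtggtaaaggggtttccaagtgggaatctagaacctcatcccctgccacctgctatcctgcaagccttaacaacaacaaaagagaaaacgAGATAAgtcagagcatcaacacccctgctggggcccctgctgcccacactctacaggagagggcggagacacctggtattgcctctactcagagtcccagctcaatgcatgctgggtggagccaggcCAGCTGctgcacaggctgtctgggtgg
Cd247, chr1:165788431-165788730, plus strand: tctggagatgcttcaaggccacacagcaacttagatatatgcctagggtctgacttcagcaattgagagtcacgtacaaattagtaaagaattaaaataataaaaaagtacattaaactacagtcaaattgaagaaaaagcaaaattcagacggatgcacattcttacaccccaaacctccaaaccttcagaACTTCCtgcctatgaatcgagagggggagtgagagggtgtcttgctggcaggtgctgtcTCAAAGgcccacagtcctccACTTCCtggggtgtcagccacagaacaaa
Cd3d, chr9:44981536-44981835, plus strand: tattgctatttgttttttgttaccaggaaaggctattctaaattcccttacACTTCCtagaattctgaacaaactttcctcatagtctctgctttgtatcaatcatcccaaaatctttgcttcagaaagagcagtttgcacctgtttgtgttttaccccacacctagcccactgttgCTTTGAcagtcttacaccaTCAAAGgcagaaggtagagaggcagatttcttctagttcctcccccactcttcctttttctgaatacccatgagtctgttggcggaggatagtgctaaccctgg

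Cd3g holds 1 GATA and 1 E-box match, Cd3e 1 ETS match, Cd247 2 ETS and 1 TCF matches, and Cd3d 1 ETS and 2 TCF matches. No window holds the RUNX letters. Among all 32851 windows of this length, 23.8% hold the ETS letters, 16% the TCF letters, 16.3% the E-box, 11.2% the GATA letters and 16.8% the RUNX letters. For 21 of the 34 genes the table had 27 windows, of which 13 held the ETS letters, 9 each the RUNX and TCF letters, 5 the E-box and 4 the GATA letters. A match describes the sequence and is no evidence of binding.

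Of the 3 coreceptor genes, Cd4 and Cd8a were called higher with MC903, each in a call that leaving out 1 library could end, and Cd8b1 was not called. Cd4, the coreceptor of helper T cells that some macrophages and dendritic cells can also express, was at 4.46, 6 and 4.45 CPM in control, 8.89, 11 and 6.03 CPM in MC903 and 6.29, 5.85 and 3.28 CPM with paeonol. It rose 1.73-fold with MC903 (log2 change 0.79 ± 0.28, edgeR adjusted p = 0.0335). MC903 library 3 lay only just above the highest control. The call ended without control library 1 or 3 or MC903 library 1 or 2 (adjusted p = 0.102, 0.106, 0.0788 and 0.143) and with scaling to library totals (0.102). The difference between paeonol and MC903 alone was not called (-0.75 ± 0.28, adjusted p = 0.063), but was without MC903 library 3 (adjusted p = 0.03), by DESeq2 (0.0319) and with counts divided by 4 (0.0485). Summed CPM of 10 macrophage and monocyte genes was 1020 to 1110 in control, 1720 to 1920 in MC903 and 555 to 883 with paeonol. Of the 10, 8 (80%) rose and 1 (10%) fell with MC903, beside 23.0% and 23.8% of all genes. With paeonol 8 (80%) were lower than with MC903 alone, beside 14.3% of all genes. The 10 dendritic and Langerhans cell genes summed to 476 to 539 CPM in control, 207 to 277 in MC903 and 331 to 354 with paeonol. Of those 10, 1 (10%) rose and 4 (40%) fell with MC903, beside 23.0% and 23.8% of all genes. Against MC903 alone, 3 (30%) were higher and 0 lower with paeonol, beside 15.3% and 14.3% of all genes. The part of either list in the Cd4 values was not tested.

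The CD8 genes were at low levels in control and paeonol ears. Cd8a, the alpha chain of the coreceptor of cytotoxic T cells, was at 0.592, 1.43 and 0.422 CPM in control, 1.27, 3.48 and 6.81 CPM in MC903 and 0.53, 0.867 and 0.364 CPM with paeonol. The MC903 libraries differed more among themselves than for Trac, and the lowest of them lay within the control range. Cd8a rose with MC903 (log2 change 2.24 ± 0.65, edgeR adjusted p = 0.0168) and was lower with paeonol than with MC903 alone (-2.71 ± 0.67, adjusted p = 0.0124). The first call ended without control library 1 or 3 or MC903 library 3 (adjusted p = 0.0664, 0.06 and 0.0624, with a change of 1.54 in the last case), and without control library 2 the change was 2.92. The second ended without paeonol library 1 or 3 (adjusted p = 0.0567 and 0.0521) and the change was -2.01 without MC903 library 3 (adjusted p = 0.0366). Cd8b1, the beta chain, had 13, 29 and 14 estimated counts in control, 51, 44 and 193 in MC903 and 0, 11 and 0 with paeonol. On counts divided by 4 its level with paeonol was 0.041 times that in MC903 alone (95% counting interval 0.00826 to 0.125), and edgeR called it lower (adjusted p = 0.0111), though not without MC903 library 3 (adjusted p = 0.051). Its fitted log2 change of -4.67 was -3.70 without that library and -4.08 without paeonol library 1. Without paeonol library 2 the group was at 0 and no fold is given. With MC903 against control it missed the threshold (adjusted p = 0.0537). It was called without any 1 of the 3 paeonol libraries (adjusted p = 0.0362, 0.0117 and 0.0381), by DESeq2 (0.0167), in the fit of 2 groups (0.0101) and with counts divided by 4 (0.0118). Against control, the paeonol ears were not called (adjusted p = 0.187), except without paeonol library 2, the only 1 with counts (adjusted p = 0.0131).

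The log2 ratio of Cd8a to Cd4 was -2.79, -2.02 and -3.2 in control, -2.73, -1.64 and 0.17 in MC903 and -3.4, -2.65 and -2.93 with paeonol, so the groups overlapped. MC903 library 3, with the highest Cd8a, was the only library with more Cd8a than Cd4 counts. Differences were 1.27 for MC903 against control and -1.60 for paeonol against MC903 (exact permutation p = 0.2 each).

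**Figure D4:**
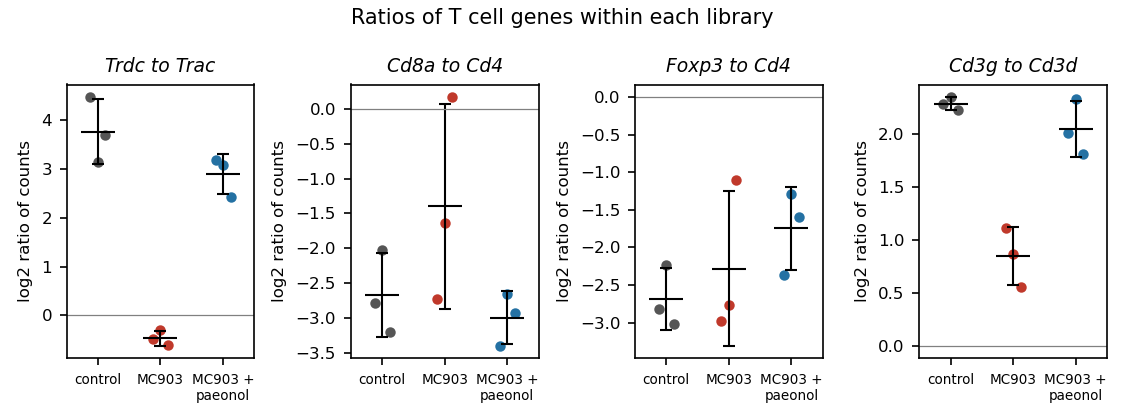
Log2 ratios of counts within each library (y axis, 4 counts added to each gene) for 4 pairs of genes in the 3 groups (x axis). Points are libraries and black bars the mean ± SD (n = 3); the Trdc to Trac and Cd3g to Cd3d ratios of MC903 lie below all other libraries, and the Cd8a to Cd4 and Foxp3 to Cd4 ratios overlap.

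Of the 5 kinases and adaptors below the receptor, Zap70 was called lower with MC903, and Lck, Lat and Skap1 were called lower with paeonol than with MC903 alone. Lck, the kinase bound to CD4 and CD8, was at 5.2, 7.4 and 5.78 CPM in control, 4.99, 6.86 and 8.22 CPM in MC903 and 4.31, 3.34 and 3.2 CPM with paeonol. Control and MC903 libraries overlapped (log2 change 0.13 ± 0.22, not called), and all paeonol libraries lay below both. Lck was 1.85-fold lower with paeonol than with MC903 alone (-0.89 ± 0.23, edgeR adjusted p = 0.0114) and 1.69-fold lower than in control (-0.76 ± 0.23, adjusted p = 0.0238). Lat, the scaffold that ZAP70 phosphorylates, had 6.12 to 8.02 CPM in control, 5.4 to 8.5 in MC903 and 3.58 to 5.07 with paeonol. It was lower with paeonol against MC903 alone (-0.83 ± 0.22, adjusted p = 0.0142) and against control (-0.75 ± 0.22, adjusted p = 0.0221). Skap1, an adaptor that links the receptor to integrins, was at 1.77 to 2.27, 2.41 to 2.57 and 0.518 to 1.42 CPM, and was lower with paeonol in both comparisons (-1.27 ± 0.33 and -0.97 ± 0.33, adjusted p = 0.0132 and 0.0448).

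Some of these calls rest on single libraries. Against MC903 alone, the Lck call ended without MC903 library 3 (edgeR adjusted p = 0.0541) and the Lat call without MC903 library 2 or paeonol library 2 (adjusted p = 0.0616 and 0.0589). Against control, the Lck and Lat calls ended without control library 2 (adjusted p = 0.0982 and 0.0866), paeonol library 2 (0.0813 and 0.0837) or paeonol library 3 (0.0814 and 0.0783), and the Skap1 call without any 1 library other than paeonol library 2 (0.059 to 0.119), without the filter on low counts (0.0543) and in the fit of 2 groups (0.0787). Zap70, the kinase recruited to phosphorylated zeta chains, was at 3.52 to 4.82 CPM in control, 1.98 to 3 in MC903 and 1.73 to 3.39 with paeonol. It fell with MC903 (-0.73 ± 0.28, adjusted p = 0.0484), a call that ended without any 1 of 6 libraries (control 1, 2 or 3, MC903 1 or 2, or paeonol 3; adjusted p = 0.0574 to 0.159), with DESeq2 size factors (0.0503) and without the filter (0.0583). With paeonol Zap70 was called lower than in control only without paeonol library 1 (adjusted p = 0.0301) and with scaling to library totals (0.0381), against 0.0844 with the main settings. Txk, a kinase of the TEC family, was at 0.422 to 0.944 CPM in all 9 libraries and was called in none of the comparisons (edgeR adjusted p = 0.307, 0.488 and 0.87).

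Among the costimulatory and inhibitory receptors, Icos and Ctla4 rose with MC903, while Cd28, Cd27 and Cd5 were not called. Icos was at 1.78, 3.18 and 2.57 CPM in control, 5.38, 6.49 and 7.03 CPM in MC903 and 1.89, 2.62 and 2.15 CPM with paeonol. Ctla4, which competes with CD28 for its ligands, was at 1.6, 2.13 and 1.81 CPM in control, 3.5, 6.16 and 8.5 CPM in MC903 and 1.75, 2.12 and 2.44 CPM with paeonol. For both genes every MC903 library lay above every other library, and the paeonol and control libraries overlapped. Icos rose 2.51-fold and Ctla4 3.27-fold with MC903 (log2 changes 1.33 ± 0.24 and 1.71 ± 0.30, edgeR adjusted p = 0.000883 and 0.000691). With paeonol they were 2.84-fold and 2.88-fold lower than with MC903 alone (-1.51 ± 0.25 and -1.53 ± 0.30, adjusted p = 0.000855 and 0.00282), and neither was called against control (-0.18 ± 0.24 and 0.18 ± 0.30). These 4 calls held under each of the 16 settings. Cd28, the main costimulatory receptor, was at 1.32 to 2.73 CPM in all libraries and was not called (edgeR adjusted p = 0.94, 0.689 and 0.741).

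Surface genes of T cells in general gave fewer calls. Cd2, an adhesion receptor shared with NK cells, Cd5, an inhibitor of receptor signalling, and Cd27, a receptor of the TNF receptor family, had log2 changes of 0.09 ± 0.41, 0.11 ± 0.22 and -0.81 ± 0.52 with MC903, and were called in none of the comparisons. Cd6, a relative of Cd5, was at 0.8 to 1.95 CPM in control, 1.23 to 3.34 in MC903 and 0.479 to 1.05 with paeonol. It was 3.05-fold lower with paeonol than with MC903 alone (-1.61 ± 0.47, edgeR adjusted p = 0.0235), a call lost when MC903 library 2 or 3, or paeonol library 1 or 3, was left out (adjusted p = 0.0596 to 0.0961). With MC903 Cd6 was called higher only without control library 2 or MC903 library 1 (adjusted p = 0.0265 and 0.0356, against 0.0981 with all libraries).

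Thy1, a surface protein of T cells that fibroblasts and neurons also express, had the highest level per kilobase of exon of the 34 genes in control (53.2 CPM per kilobase, ahead of Trbc2 at 20.0 and Gata3 at 18.0). It was at 157, 176 and 145 CPM in control, 92.6, 111 and 106 CPM in MC903 and 148, 152 and 131 CPM with paeonol. The MC903 libraries lay below all others. Thy1 fell with MC903 (log2 change -0.62 ± 0.09, edgeR adjusted p = 0.000191) and was higher with paeonol than with MC903 alone (0.47 ± 0.09, adjusted p = 0.00251). Against control it was called lower only under scaling by library totals (adjusted p = 0.0314, against 0.256). Among 7 fibroblast genes 5 (71.4%) fell and 1 (14.3%) rose with MC903, beside 23.8% and 23.0% of all genes. With paeonol 3 (42.9%) were higher and 1 (14.3%) lower than with MC903 alone, beside 15.3% and 14.3% of all genes. The part of these genes in the Thy1 values was not tested.

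Of 4 receptor genes for cytokines that sustain T cells, Il2rb, Il2rg and Il7r were called lower with paeonol than with MC903 alone. Il2rg, the common gamma chain of the receptors for interleukins 2, 4, 7, 9, 15 and 21, was at 13.9, 19.7 and 13.6 CPM in control, 22.3, 23.4 and 23.5 CPM in MC903 and 11.8, 11.7 and 8.9 CPM with paeonol. The 3 groups did not overlap, with MC903 highest and paeonol lowest. Summed CPM of the macrophage and monocyte genes given above was also highest in MC903 and lowest with paeonol, and their part in the Il2rg values was not tested. As for Il2rg itself, the changes were as follows. Il2rg rose 1.47-fold with MC903 (log2 change 0.55 ± 0.16, edgeR adjusted p = 0.0123) and was 2.14-fold lower with paeonol than with MC903 alone (-1.09 ± 0.16, adjusted p = 0.000388) and 1.46-fold lower than in control (-0.54 ± 0.16, adjusted p = 0.0219). The rise ended without control library 1 or 3 (adjusted p = 0.0525 and 0.0545) and with scaling to library totals (0.0893), and the last call without control library 2 or paeonol library 3 (0.0939 and 0.0801). Il7r, the receptor chain for interleukin-7, was at 9.23, 8.84 and 7.84 CPM in control, 12.4, 12.1 and 18.8 CPM in MC903 and 8.81, 9.3 and 7.82 CPM with paeonol. It rose 1.67-fold with MC903 (0.74 ± 0.17, adjusted p = 0.00449) and was 1.67-fold lower with paeonol than with MC903 alone (-0.74 ± 0.17, adjusted p = 0.00799), with a change of 0.00 ± 0.17 against control.

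Il2rb, the beta chain shared by the interleukin-2 and interleukin-15 receptors, was at 5.55, 9.09 and 6.47 CPM in control, 7.62, 10.9 and 12.1 CPM in MC903 and 4.13, 4.09 and 4.31 CPM with paeonol. All paeonol libraries lay below all others. Il2rb was 2.44-fold lower than with MC903 alone (log2 change -1.29 ± 0.22, edgeR adjusted p = 0.00106) and 1.68-fold lower than in control (-0.75 ± 0.22, adjusted p = 0.0212). The latter call ended without control library 2 or paeonol library 1 or 2 (adjusted p = 0.0975, 0.0549 and 0.0653). With MC903 it missed the threshold (0.54 ± 0.21, adjusted p = 0.0586) and passed it without control library 2 or MC903 library 1 (0.0144 and 0.0183), by DESeq2 (0.0366) and with counts divided by 4 (0.0458). Il2ra, the high-affinity chain and a marker of regulatory and activated T cells, was at 1.55 to 3.26 CPM in control, 2.66 to 6.35 in MC903 and 1.94 to 2.86 with paeonol, and was called only without MC903 library 1 (adjusted p = 0.0258 with MC903 and 0.0343 with paeonol against MC903 alone, beside 0.0852 and 0.101 with all libraries).

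**Figure D5:**
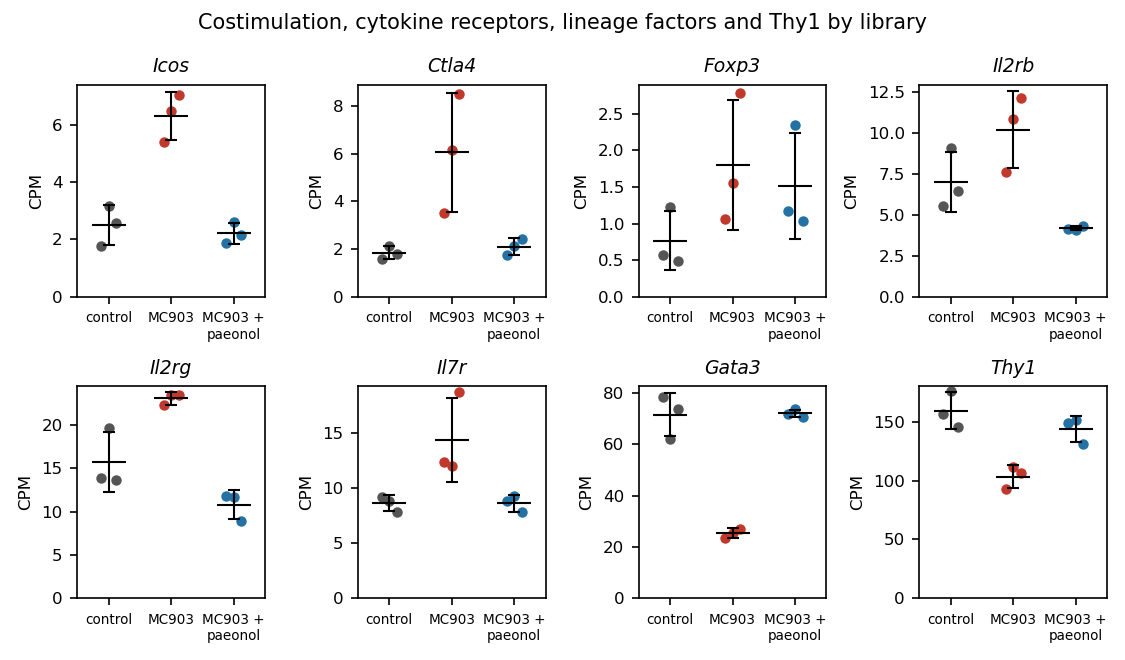
CPM (y axis, from 0) of 8 costimulatory, cytokine receptor, lineage factor and surface genes in the 3 groups (x axis). Points are libraries and black bars the mean ± SD (n = 3); Icos, Ctla4, Il2rg and Il7r were highest in the MC903 libraries, where Gata3 and Thy1 were lowest.

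Of the lineage genes Foxp3, Gata3, Tbx21 and Ccr6, Gata3 was called in 2 of the 3 comparisons and the others in none. Foxp3, the factor of regulatory T cells, was at 0.576, 1.23 and 0.49 CPM in control, 1.06, 1.55 and 2.78 CPM in MC903 and 1.17, 2.34 and 1.03 CPM with paeonol. Its groups overlapped, and it was called in none of the comparisons (edgeR adjusted p = 0.0567, 0.75 and 0.154). The difference between MC903 and control, a log2 change of 1.23 ± 0.48, passed the threshold without control library 2, MC903 library 1 or paeonol library 2 (adjusted p = 0.0193, 0.0344 and 0.0498), by DESeq2 (0.0373) and with counts divided by 4 (0.0458). The log2 ratio of Foxp3 to Cd4 was -3.02 to -2.23 in control, -2.98 to -1.1 in MC903 and -2.36 to -1.29 with paeonol. The groups overlapped in that ratio in each comparison (exact permutation p = 0.6, 0.5 and 0.2). Foxp3 exons overlap Ccdc22, Ppp1r3f and Gm36995 on the other strand and Flicr on its own, so its counts are uncertain where reads were not assigned by strand.

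Gata3, the factor of type 2 helper cells and group 2 innate lymphoid cells, which keratinocytes and hair follicles also express, was at 78.5, 62.2 and 73.8 CPM in control, 23.5, 25.6 and 27.2 CPM in MC903 and 71.8, 73.6 and 70.8 CPM with paeonol. The MC903 libraries lay far below all others, and the paeonol libraries within the control range. Gata3 fell 2.81-fold with MC903 (log2 change -1.49 ± 0.09, edgeR adjusted p = 4.91e-07) and was 2.83-fold higher with paeonol than with MC903 alone (SE of the log2 change 0.09, adjusted p = 1.91e-06). Its change against control was 0.01 ± 0.09. Per kilobase of exon Gata3 stood at 18.0 CPM in control, above Cd3g at 4.43 and Cd3e at 1.71. Summed CPM of 7 hair follicle genes was 72.1 to 97.1 in control, 37.7 to 45.5 in MC903 and 76.1 to 103 with paeonol. Of these 7, 3 (42.9%) fell with MC903, beside 23.8% of all genes. With paeonol 3 (42.9%) were higher than with MC903 alone, beside 15.3% of all genes. The 7 keratinocyte genes summed to 16800 to 19400 CPM in control, 24300 to 30300 in MC903 and 40000 to 43400 with paeonol. Of those 7, 3 (42.9%) rose and 2 (28.6%) fell with MC903, beside 23.0% and 23.8% of all genes. Against MC903 alone, 4 (57.1%) were higher and 2 (28.6%) lower with paeonol, beside 15.3% and 14.3% of all genes. The part of either list in the Gata3 values was not tested.

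Tbx21, the factor of type 1 helper cells, and Ccr6, a chemokine receptor of type 17 and gamma-delta T cells, were near the limit of detection. Tbx21 was at 0.312 to 0.76 CPM in control, 0.351 to 0.563 in MC903 and 0.192 to 0.258 with paeonol, and Ccr6 at 0.705 to 1.14, 0.0554 to 0.436 and 0.265 to 0.575 CPM. Neither was called (edgeR adjusted p = 0.0811 to 0.542 for Ccr6 and 0.117 to 0.701 for Tbx21), but Ccr6 was lower with MC903 under scaling by library totals (adjusted p = 0.0495) and with counts divided by 4 (0.0396).

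Of the 2 genes of cytotoxic cells, Klrk1 fell. It encodes NKG2D, carried by NK cells, CD8 T cells and dendritic epidermal T cells, and was at 9.52, 11.3 and 9.82 CPM in control, 3.13, 3.97 and 5.5 CPM in MC903 and 6.02, 5.4 and 4.43 CPM with paeonol. All control libraries lay above all others. Klrk1 fell 2.43-fold with MC903 (log2 change -1.28 ± 0.21, edgeR adjusted p = 0.000422). With paeonol it was 1.93-fold below control (-0.95 ± 0.21, adjusted p = 0.00537) and was not called against MC903 alone (0.33 ± 0.21, adjusted p = 0.281). Nkg7, a granule protein of cytotoxic cells, was at 2.27 to 5.83 CPM in all libraries and was not called (edgeR adjusted p = 0.93, 0.53 and 0.461). Of 10 NK cell genes listed, 7 were tested. With MC903 3 (42.9%) rose and 2 (28.6%) fell, beside 23.0% and 23.8% of all genes. With paeonol 0 were higher and 3 (42.9%) lower than with MC903 alone, beside 14.3% of all genes lower. Against control 0 were higher and 3 (42.9%) lower, beside 14.5% of all genes lower. The defining NK receptor gene Ncr1 had at most 18 counts in any library and was at 0 in all MC903 libraries. The granzyme gene Gzmb was at 0.88 to 4.56 CPM in control, 11.7 to 21.2 in MC903 and 0.844 to 1.59 with paeonol, and rose by 2.75 ± 0.56 with MC903. The pore-forming protein gene Prf1 fell by 1.43 ± 0.37 and Klrd1 by 0.85 ± 0.25. Fcgr3, an Fc receptor gene that macrophages share, rose by 1.18 ± 0.12.

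Compared per kilobase of exon, the order of the genes shifted with MC903. In control, Thy1, Trbc2, Gata3, Trbc1, Il2rg and Trdc held ranks 1 to 6 of the 34, with Trdc at 5.06 ± 0.278 CPM per kilobase and Cd3g and Nkg7 next at 4.43 ± 0.236 and 4.38 ± 1.28, which do not differ beyond their spread. In MC903 Trdc stood at rank 22 (0.672 ± 0.0386), Trac moved from rank 17 to 7 (1.59 ± 0.791 to 3.89 ± 0.506) and Ctla4 from 21 to 10. With paeonol Trdc was at rank 8, Trac at 12 and Ctla4 at 18.

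Of 57 further T cell genes, 54 were tested. With MC903, 15 were higher and 13 lower, and with paeonol against MC903 alone 9 were higher and 18 lower, with median log2 changes of 0.04 and -0.49. The called share of 51.9% with MC903 is near the 46.8% of all genes, and that of 50% with paeonol against MC903 stands beside 29.7%. Against control 2 were higher and 12 lower with paeonol, 25.9% called beside 30.9% of all genes. Among those with the smallest p-values were Rasgrp1, an activator of RAS downstream of the receptor, Ikzf2, which encodes the factor Helios, and S1pr1, a receptor that guides lymphocyte exit from tissue. Rasgrp1 and Ikzf2 fell with MC903 by 1.70 ± 0.10 and 2.32 ± 0.15. They were higher with paeonol than with MC903 alone by 1.60 ± 0.10 and 1.91 ± 0.15. The part of cells other than T cells in the Rasgrp1 and Ikzf2 values was not tested. S1pr1, which endothelium also expresses, rose by 0.63 ± 0.11 with MC903 and was lower with paeonol than with MC903 alone (-1.40 ± 0.11). Cytokines that define the helper lineages were at low levels. Il4 was at 0.384 to 1.12 CPM and Il13 at 0 to 0.344 CPM over the 9 libraries, and neither was called. Ifng was at 0 to 1.44 CPM and was not called, and Il17a and Il22, at 0 to 0.707 and 0 to 0.328 CPM, did not pass the filter on low counts. Il17f, a type 17 cytokine named after its values were seen, had 15, 54 and 39 estimated counts in control, 0, 7 and 0 in MC903 and 28, 31 and 15 with paeonol. It was called lower with MC903 and higher with paeonol than with MC903 alone (edgeR adjusted p = 0.0142 and 0.0371), and was not called against control. The MC903 counts of Il17f were under the floor of 12, so no fold is given.

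Of the 16, 17 and 10 calls among the 34 genes in the 3 comparisons, 12, 10 and 4 held under each of the 16 alternative settings. The 4 against control were Trdc, Cd247, Trbc2 and Klrk1. Without control library 2 or paeonol library 3 the count against control was 5.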

How the data were processed

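Estimated counts per gene were deposited by the authors for 9 libraries, as whole numbers that are not scaled between libraries. The tools named, per the submitters' processing notes, are HISAT2 2.0.4, StringTie 1.3.4d and cutadapt, with the build GRCm38. What each tool did, which annotation served and whether counting used the strand: not given in the sources used here. Poly(A) RNA was captured and the second strand made with dUTP, per the labels' protocols. The values 4 and 8 are 1.90 to 2.23 and 1.23 to 1.49 times as frequent as their neighbours, so 1 fragment may stand for 4 counts; the floor was therefore 12 counts per library, and intervals were taken on counts divided by 4 and cover counting error only. Groups were read from the treatment labels. Columns were joined to samples by library name. Symbols and positions came from GENCODE M21 (GRCm38), which matched 55141 of 55401 features.

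The 9 libraries were fitted in edgeR 4.0.16 (R 4.3.3; filterByExpr with minimum count 10 and minimum total 15; TMM factors 0.942 to 1.09; robust quasi-likelihood F test, two-sided). The standard error was approximated from the log2 change and its F value. Levels per kilobase use the union of exons. The 34 genes and the other lists were chosen with earlier results of these data known. All 34 genes are named. Of each other list at most 4 genes, those with the smallest p in any comparison, could be named, and the lineage cytokines; the text names them for the T cell, gamma-delta and NK lists, of which 1 gene is not reported here, and gives other marker lists as counts or sums only. On simulated data made from these libraries, for MC903 versus control with 21925 genes, 26.9%, 43.3% and 81.8% of genes changed 1.5-fold, 2-fold and 4-fold were recovered, and 0.0322% of unchanged genes were called. The simulation changed 67, 67 and 66 genes at these folds, far fewer than the 10259 called in the data. Its rates therefore need not hold for the data. Libraries of 1 group differed by more than counting noise (chi-square over its degrees of freedom 6.51 to 14.4, on counts divided by 4), which does not show that they are separate animals; none was merged with another. Alternatives were DESeq2 1.42.0, its size factors, library totals, no filter, fits of 2 groups, counts divided by 4, the replicate number as a block and each library left out. The exact permutation tests used SciPy 1.17.1.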

Additional observations from a re-analysis of the deposited data

How the results depend on the processing

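The numbers of the 34 genes called were 16, 17 and 10 (MC903 against control, paeonol with MC903 against MC903, and against control). With 1 library left out they ranged from 12 to 18, 14 to 19 and 5 to 9, and under the other settings from 15 to 20, 17 to 18 and 9 to 14. Over all genes the calls were 10259, 6502 and 6765, and 9012 to 10376, 5065 to 6328 and 5216 to 6710 with 1 library left out. Scaling by library totals took the all-gene median from -0.01 to -0.21 (log2) in the first comparison and from -0.04 to -0.20 in the third, and the split of all calls from 5044 higher and 5215 lower to 3402 and 7224, and from 3578 and 3187 to 2155 and 5354. Same-numbered libraries did not deviate together (correlations of -0.01 to 0.04). A replicate block gave 17, 18 and 11 of the 34 genes called, of which 15, 17 and 10 were also called without it; Foxp3 and Il2rb were then called higher with MC903 (edgeR adjusted p = 0.0405 and 0.0429), Zap70 was no longer called (0.0618), and Cd4 was lower with paeonol than with MC903 alone (0.0181) and Cd3e was lower with paeonol than in control (0.0268).

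No called change turned its sign. Of changes that were not called, some near 0 did. Under library totals these were Cd28, Cd2, Cd5, Lck and Lat with MC903 (log2 changes of -0.16, -0.10, -0.08, -0.06 and -0.11) and Cd4, Il7r, Txk and Gata3 with paeonol against control (-0.11, -0.16, -0.04 and -0.15). With counts divided by 4 it was Cd27 with paeonol against MC903 (-0.02), and with the replicate block Il2ra with paeonol against control (0.06). With 1 library left out, values with MC903 ranged from -0.38 to 0.25 for Cd3d, -0.08 to 0.15 for Cd28, -0.14 to 0.44 for Cd2, -0.05 to 0.30 for Lck, -0.05 to 0.25 for Lat, -0.56 to 0.04 for Tbx21 and -0.47 to 0.22 for Nkg7. With paeonol against MC903 they ranged from -0.44 to 0.06 for Cd28, -0.71 to 0.21 for Foxp3, -0.38 to 0.61 for Cd27, -0.23 to 0.25 for Zap70 and -0.68 to 0.07 for Nkg7. With paeonol against control they ranged from -0.11 to 0.29 for Cd4, -0.86 to 0.21 for Cd8a, -0.63 to 0.11 for Trac, -0.41 to 0.09 for Cd28, -0.37 to 0.03 for Icos, -0.30 to 0.16 for Il2ra, -0.06 to 0.07 for Il7r, -0.25 to 0.06 for Cd5 and -0.08 to 0.08 for Gata3. The Foxp3 to Cd4 ratio with MC903 ranged from -0.18 to 0.76. The causes were not tested. Genes under about 1 CPM rest on few fragments, so small changes in them were not detectable at this depth.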

Other observations

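The genes here were chosen after their values were seen, Pdcd1, Tigit and Il10 because they were highest in MC903. Pdcd1, the inhibitory receptor PD-1, was at 0 to 0.295 CPM in control, 1.55 to 2.72 CPM in MC903 and 0.258 to 0.459 CPM with paeonol. Its log2 change was 3.47 ± 0.77 with MC903 (edgeR adjusted p = 0.00335) and -2.59 ± 0.73 with paeonol against MC903 alone (adjusted p = 0.021). Tigit, an inhibitory receptor of T and NK cells, was at 0.101 to 0.591, 1.27 to 1.85 and 0.166 to 0.441 CPM, and Il10, the cytokine interleukin-10 that macrophages also make, at 0.237 to 1.38, 3.33 to 4.81 and 0.812 to 1.01 CPM. Every MC903 library lay above every other library for these 3 genes, which restates how they were chosen. The p-values do not allow for that choice. Lag3, another inhibitory receptor of activated T cells in the same list, was at 4.06 to 5.89 CPM in control, 2.94 to 3.41 CPM in MC903 and 2.59 to 3.8 CPM with paeonol. It was called lower with MC903 (-0.64 ± 0.22, edgeR adjusted p = 0.0318) and with paeonol against control (-0.69 ± 0.22, adjusted p = 0.0328). Gzma, a granzyme gene of the NK cell list, was at 0.048 to 1.2 CPM in control, 2.74 to 8.53 CPM in MC903 and 0 to 0.247 CPM with paeonol, and was called in the first 2 comparisons (adjusted p = 0.0479 and 0.0186).

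Il2, the T cell growth factor, had 14, 8 and 18 estimated counts in control, 15, 25 and 8 in MC903 and 0 in each paeonol library. A floor of 12 counts in each paeonol library corresponds to 0.221 CPM. The MC903 mean was 1.36 times that CPM floor and the control mean 0.994 times, with no allowance for counting error. In MC903 and in control the library with 8 counts was itself under the floor of 12. No fold against paeonol is therefore given for either group.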
